A study of Mus musculus with 10 samples.

Results

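Chemokine ligands and their receptors were examined in the femurs of mice whose hindlimbs had been unloaded for 24 h. The members were all gene probes of the array whose name in the scanner files begins as a CC, CXC, CX3C or XC chemokine ligand or a CC, CXC or CX3C receptor, with the older receptor name Il8rb added. Cxcl12 and its receptor Cxcr4 were left out. The names took 63 of the 41174 gene probes, for 49 genes, of which 34 encode ligands and 15 encode receptors. The rule reads probe names and no measured value. The measured RNA came from 10 male ICR mice aged 6 months, an outbred stock with no engineered allele named in the labels. There were 5 unloaded and 5 control mice, with 1 array each. Unloaded mice were hung by the tail, head down, and control mice moved freely. All animals were housed singly, assigned at random, and their femurs were taken under anaesthesia. Body weight was 25.53 to 29.34 g in unloaded mice and 26.85 to 31.3 g in control mice.

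Chemokines are small secreted proteins that direct the migration of leukocytes along a gradient. They are classed by the spacing of the first cysteines, as CC, CXC, CX3C or XC, and they act through receptors of the G protein-coupled class that signal through inhibitory G proteins. In bone, they guide the traffic of monocytes, neutrophils and lymphocytes between marrow and blood, and monocytes include precursors of the osteoclasts that resorb bone. Several ligands share a receptor, and several receptors bind more than a single ligand.

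The arrays were Agilent one-colour arrays, and a value is the log2 of a probe's processed signal minus the log2 of the 75th percentile of its array, so that 0 marks that percentile. Values of different probes are not levels that can be ranked against each other, since probes differ in response. Before scaling, the 75th percentile was 656 to 807 intensity units on the unloaded arrays and 703 to 939 on the control arrays, and the share of spots well above background was 89.8% to 95.5%. Unloaded animal 5 stood apart from the rest, with a mean correlation across probes of 0.972 with the other arrays, against 0.984 to 0.987 for those. Per the file headers, 3 slides were used: unloaded animals 1 to 3 shared slide 2 with control animal 5, unloaded animals 4 and 5 were on slide 3 and control animals 1 to 4 on slide 1, so slide and loading were nearly confounded. Slide 2 alone held both groups, so a fit with slide as a fixed block takes its difference from slide 2, with 1 control. Of the probes given by animal, the slide 2 difference is printed wherever it has the other sign or is over 1.5 times larger or smaller. RNA came from the excised femur, and whether marrow was removed is not given in the sources used here. In such bulk RNA, fewer cells of a type and less RNA per cell cannot be told apart. All 7 osteoblast and osteocyte markers examined, among them Bglap (osteocalcin) and Sost (sclerostin), were well above background.

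No chemokine ligand or receptor passed the test. Of the 63 probes, 62 were tested, for 48 genes. Ccl20, the ligand of Ccr6, was the probe that was not tested, since it was not well above background on any array. Of the 62 tested probes, 0 were called higher and 0 lower by limma at an adjusted p below 0.05, and adjusted p lay between 0.218 and 0.992. Over all 38629 tested probes, 0.00259% were called higher and 0% lower. At an unadjusted p below 0.05 there were 10 member probes with a higher and 2 with a lower value in unloaded femurs, or 19.4% of the members, against 16.2% of all tested probes (10.5% higher and 5.77% lower). The 2 groups did not overlap for 4 members, or 6.45%, against 3.17% of all tested probes (1.56% with unloaded higher and 1.61% with unloaded lower). These were the ligands Cx3cl1, Cxcl15 and Ccl2, where every unloaded animal lay above every control animal, and the receptor Ccr2, where every unloaded animal lay below.

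The differences were small as well as uncalled. The difference, unloaded minus control on the log2 scale, was above 0 for 44 of the 62 probes and below 0 for 18, where 63.1% of all tested probes were above 0, and the split was 33 to 29 after scaling to the array median, 34 to 28 after quantile normalization and 27 to 35 with slide as a fixed block. Its median over the 48 genes was 0.06, the same to 2 decimals as over all 18955 tested genes. With slide as a fixed block the median was -0.08 over the member genes and -0.0040 over all genes. The fixed-block differences rest on slide 2, where control animal 5 was the lone control. The 95% interval of the difference lay within 2-fold of no change for 61 of the 62 probes and within 1.5-fold for 47. The exception at 2-fold was 1 of the 2 probes of Cx3cr1, the fractalkine receptor. By role, 22 of the 33 tested ligand genes and 10 of the 15 receptor genes had positive differences, with medians of 0.10 and 0.02. The plot of each probe's difference by role shows the intervals, and the plot of cumulative shares sets the members beside all probes.

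**Figure D1:**
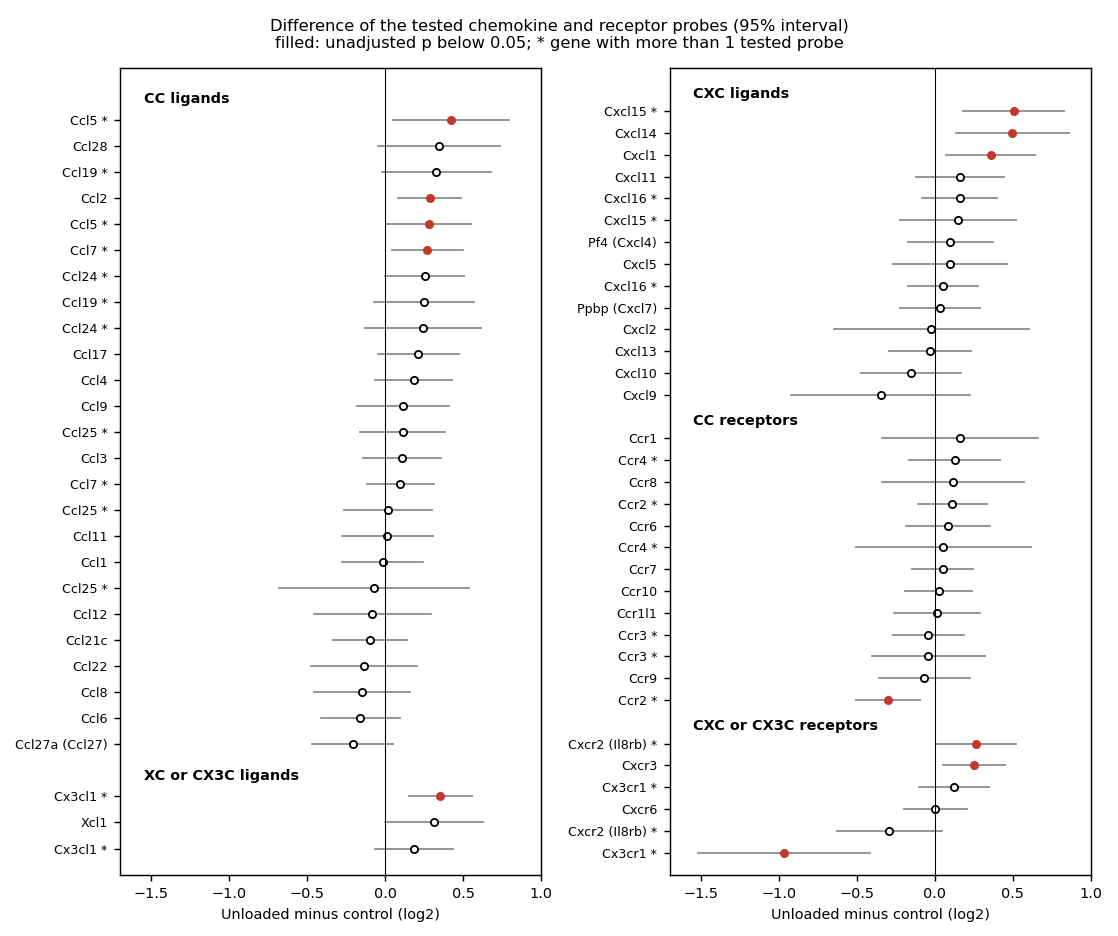
Difference in log2 signal, unloaded minus control, for 61 of the 62 tested chemokine ligand and receptor probes, grouped by role, with points at the estimate and bars for the 95% interval from limma. Filled points are at an unadjusted p below 0.05, and an asterisk marks a gene with more than 1 tested probe. None of these probes was called, and a single Cx3cr1 probe has an interval that reaches past a 2-fold change.

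**Figure D2:**
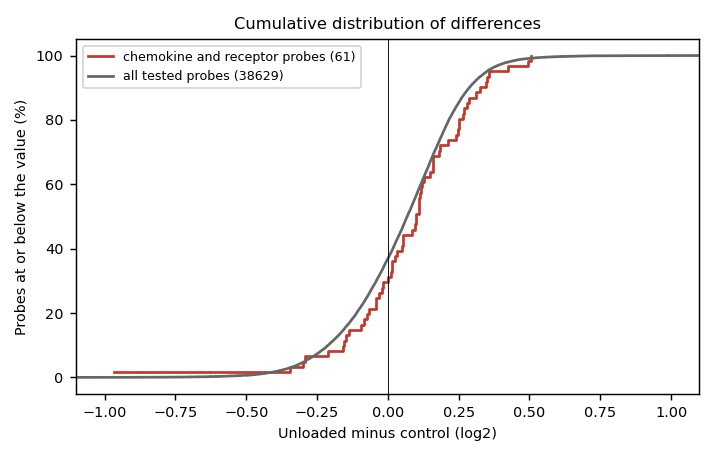
Cumulative share of probes against the log2 difference, unloaded minus control, for 61 member probes and for all 38629 tested probes. The median over the tested member probes is 0.10 and that over all probes 0.07, and the 2 curves lie close together over most of their range.

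Among the CC ligands, which mainly attract monocytes and lymphocytes, 12 of 19 tested genes had positive differences and 7 negative ones, with a median of 0.11. Ccl2, or MCP-1, draws monocytes out of the marrow through Ccr2. Its signal was -0.62, -0.83, -0.60, -0.81 and -0.46 in unloaded animals 1 to 5, against -0.97, -0.93, -0.99, -0.93 and -0.93 in control animals 1 to 5. On this scale the lowest unloaded animal stood above the highest control animal, and the control values spanned a narrow range. Before scaling the groups overlapped, at 419.7 to 525.9 intensity units in unloaded and 369.4 to 493.3 in control animals. After median scaling the difference was 0.19. The difference was 0.28 ± 0.09 (SE, n = 5 each), with a 95% interval of 0.08 to 0.49 and a limma adjusted p of 0.252, and on slide 2 it was 0.25. This probe was spotted 10 times on each array, so its values average more spots than those of most members.

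Ccl7, another ligand of Ccr2, has a probe A_52_P208763 that gave -0.42, -0.57, -0.22, -0.43 and -0.24 in unloaded animals 1 to 5, against -0.72, -0.56, -0.87, -0.59 and -0.47 in control animals 1 to 5. The groups overlapped through unloaded animal 2. The difference of this probe was 0.27 ± 0.11 (SE, n = 5 each), with a 95% interval of 0.04 to 0.50 and a limma adjusted p of 0.274, and it was 0.07 on slide 2. The other Ccl7 probe differed by 0.10, with an adjusted p of 0.608. The remaining genes of this neighbourhood, Ccl8, Ccl11 (eotaxin), Ccl12 and Ccl1, had differences between -0.15 and 0.01.

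Ccl5, or RANTES, attracts T cells and monocytes. Its 2 probes had differences of the same sign. Probe A_52_P638459 gave 1.24, 1.25, 1.58, 1.29 and 1.78 in unloaded animals 1 to 5, against 1.21, 0.55, 0.65, 1.18 and 1.43 in control animals 1 to 5. Unloaded animal 5 was the highest and control animals 2 and 3 were the lowest. Probe A_51_P485312 gave -0.57, -0.33, -0.41, -0.46 and -0.09 in unloaded animals 1 to 5, against -0.64, -0.996, -0.71, -0.55 and -0.37 in control animals 1 to 5, with control animal 2 lowest and unloaded animal 5 highest again. The difference was 0.42 ± 0.17 (SE, n = 5 each), with a 95% interval of 0.05 to 0.80 and a limma adjusted p of 0.28 for A_52_P638459 and 0.28 ± 0.13 (SE, n = 5 each), with a 95% interval of 0.01 to 0.55 and a limma adjusted p of 0.304 for A_51_P485312. On slide 2, where control animal 5 was the lone control, both differences were -0.07, so the direction did not hold there. Ccl3 and Ccl4, inflammatory chemokines of macrophages whose genes lie near Ccl5, differed by 0.11 and 0.18.

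Ccl19 and Ccl21c are ligands of Ccr7 that guide dendritic cells and naive lymphocytes into lymphoid tissue. Ccl19 gave 1.03, 0.52, 0.78, 0.43 and 1.16 in unloaded animals 1 to 5, against 0.34, 0.50, 0.86, 0.53 and 0.43 in control animals 1 to 5. Unloaded animals 1 and 5 were above all controls, while unloaded animals 2, 3 and 4 lay among them. Its difference was 0.25 ± 0.15 (SE, n = 5 each), with a 95% interval of -0.07 to 0.57 and a limma adjusted p of 0.386, and it was 0.16 without unloaded animal 5. Its other probe differed by 0.33. Ccl21c gave 0.70, 0.40, 0.51, 0.57 and 0.78 in unloaded animals 1 to 5, against 0.51, 0.79, 0.92, 0.53 and 0.67 in control animals 1 to 5. Its groups overlapped over most of their range, with a difference of -0.10 ± 0.11 (SE, n = 5 each), with a 95% interval of -0.33 to 0.14 and a limma adjusted p of 0.642. Mouse Ccl21 has near-identical gene copies that a probe may not tell apart.

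Ccl6 and Ccl9 are myeloid CC chemokines described in mice, and Ccl9 is made by osteoclasts. Ccl6 gave 2.87, 2.82, 2.82, 2.89 and 2.72 in unloaded animals 1 to 5, against 2.77, 3.07, 3.22, 2.67 and 3.20 in control animals 1 to 5. The unloaded values lay within the control range. The difference was -0.16 ± 0.12 (SE, n = 5 each), with a 95% interval of -0.41 to 0.09 and a limma adjusted p of 0.47, and it was -0.36 on slide 2. Ccl9 gave 0.67, 0.94, 0.90, 1.05 and 1.11 in unloaded animals 1 to 5, against 0.79, 0.79, 1.18, 0.39 and 0.95 in control animals 1 to 5, with the lowest value in control animal 4, a difference of 0.11, an adjusted p of 0.665 and a difference of -0.11 on slide 2. Without control animal 4 the Ccl9 difference was 0.0044. The other CC ligands had differences between -0.21 and 0.35. The lowest was that of Ccl27 (Ccl27a), a skin ligand of Ccr10 with near-identical copies in mice, and the highest that of Ccl28, a mucosal ligand of the same receptor. Of the ligands of Ccr4, Ccl17 differed by 0.21 and Ccl22 by -0.14. Ccl24, an eotaxin that binds Ccr3, differed by 0.25 and 0.24 on its 2 probes. Ccl25, which guides cells through Ccr9, had 3 probes with differences of 0.11, 0.01 and -0.07.

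Among the CXC ligands, 8 of 12 genes had positive differences, with a median of 0.08. Cxcl1, a neutrophil attractant that acts through Cxcr2, gave -0.81, -0.96, -0.76, -0.53 and -0.25 in unloaded animals 1 to 5, against -1.21, -1.07, -1.04, -0.78 and -0.99 in control animals 1 to 5. Unloaded animals 3, 4 and 5 were above every control, and unloaded animals 1 and 2 were below control animal 4. The difference was 0.36 ± 0.13 (SE, n = 5 each), with a 95% interval of 0.07 to 0.64 and a limma adjusted p of 0.261, and it was 0.14 on slide 2. Cxcl2 and Cxcl5, which share the receptor, differed by -0.02 and 0.10. The 95% interval of the Cxcl2 difference was -0.65 to 0.60. Its probe was dim, at 43 to 152.1 intensity units, and was well above background on 4 of the 5 control arrays.

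Cxcl1 and Cxcl2 encode the related neutrophil attractants and lie close together on chromosome 5, and their promoters are shown here beside that of Cx3cl1, the ligand with the smallest adjusted p. Cxcl2 was chosen after its value was seen. Each sequence runs over the 250 bases before the gene's start, from RefSeq on GRCm38.p6, 5′ to 3′ on the gene's own strand. Capitals mark matches to the NF-kB consensus of 10 bases, searched on both strands with overlaps counted. Cxcl1 lies at chr5:90890995-90891244 and Cxcl2 at chr5:90903649-90903898, both on the plus strand, and Cx3cl1 at chr8:94771930-94772179 on the plus strand.
Cxcl1: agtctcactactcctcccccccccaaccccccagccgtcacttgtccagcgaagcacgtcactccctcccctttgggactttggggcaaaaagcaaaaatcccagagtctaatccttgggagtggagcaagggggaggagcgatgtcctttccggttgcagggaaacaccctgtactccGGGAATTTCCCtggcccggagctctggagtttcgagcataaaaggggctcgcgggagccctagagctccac
Cxcl2: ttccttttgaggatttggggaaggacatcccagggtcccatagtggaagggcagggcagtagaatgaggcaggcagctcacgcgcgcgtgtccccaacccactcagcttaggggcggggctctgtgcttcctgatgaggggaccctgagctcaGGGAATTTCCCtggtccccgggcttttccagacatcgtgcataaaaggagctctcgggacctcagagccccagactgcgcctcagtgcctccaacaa
Cx3cl1: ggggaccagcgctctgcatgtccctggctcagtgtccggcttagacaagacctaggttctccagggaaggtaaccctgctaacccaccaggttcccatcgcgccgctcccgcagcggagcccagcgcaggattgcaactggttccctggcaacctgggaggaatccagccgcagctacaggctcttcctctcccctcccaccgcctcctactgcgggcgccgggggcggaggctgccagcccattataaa
The Cxcl1 and Cxcl2 windows each held 2 overlapping matches with the same letters, the first starting 71 bases before the start in Cxcl1 and 97 bases before it in Cxcl2. Those letters were not in the Cx3cl1 window. Of all 32851 promoters of this length in the table, 7.25% held a match. The share among members is not given as a result, because 36 of the 49 genes had a sequence, too few for such a check. The shared letters stood beside differences of 0.36 for Cxcl1 and -0.02 for Cxcl2, and no binding was measured. The wide interval of the dim Cxcl2 probe holds the Cxcl1 value, so no contrast between the 2 genes is drawn.

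Cxcl14, a chemokine made by epithelia and stromal cells under resting conditions, gave 2.83, 3.59, 3.23, 3.21 and 3.44 in unloaded animals 1 to 5, against 2.47, 2.85, 3.28, 2.72 and 2.51 in control animals 1 to 5. Unloaded animals 2 and 5 were above every control, whereas control animal 3 was among the unloaded values and control animal 2 lay just above unloaded animal 1. The difference was 0.50 ± 0.17 (SE, n = 5 each), with a 95% interval of 0.13 to 0.86 and a limma adjusted p of 0.252, and it was larger on slide 2, at 0.71. Cxcl15, or lungkine, was first described as a lung neutrophil attractant. Its probe A_52_P820196 gave -2.54, -2.73, -1.96, -2.68 and -2.19 in unloaded animals 1 to 5, against -2.85, -2.85, -3.24, -2.77 and -2.91 in control animals 1 to 5. The groups did not overlap, though unloaded animals 2 and 4 stood close to the highest control. The difference was 0.51 ± 0.15 (SE, n = 5 each), with a 95% interval of 0.18 to 0.83 and a limma adjusted p of 0.241, and it was 0.50 on slide 2. The other Cxcl15 probe differed by 0.15, with an adjusted p of 0.650.

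Cxcl4 and Cxcl7, now named Pf4 and Ppbp, are stored in platelet granules. Pf4 gave 5.46, 5.75, 5.84, 5.80 and 5.69 in unloaded animals 1 to 5, against 5.25, 5.60, 5.88, 5.49 and 5.82 in control animals 1 to 5. The unloaded values lay within the control range, and the difference was 0.10 ± 0.13 (SE, n = 5 each), with a 95% interval of -0.17 to 0.37 and a limma adjusted p of 0.679. Ppbp gave 5.82, 5.82, 5.94 and 6.03 in unloaded animals 1, 2, 4 and 5, against 5.58, 5.83, 5.94, 5.85 and 6.15 in control animals 1 to 5. Unloaded animal 3 had no value, since its spot was marked as an outlier, and the fit used the other 4. The difference was 0.03 ± 0.12 (SE, n = 4 unloaded and 5 control; limma), with an adjusted p of 0.896. On slide 2 the differences were -0.14 for Pf4 and -0.33 for Ppbp. Of 8 markers of megakaryocytes and platelets, 6 had positive differences and 0 were at an unadjusted p below 0.05. Their summed signal, in units of the array's 75th percentile, was 42.5 to 58.6 in unloaded femurs and 35.6 to 69.3 in control femurs.

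The interferon-induced ligands of Cxcr3 showed no common direction, with differences of -0.35 for Cxcl9, -0.15 for Cxcl10 and 0.16 for Cxcl11 and adjusted p of 0.486, 0.576 and 0.510. Cxcl9 had an SD of 0.22 in unloaded femurs and 0.71 in control femurs. Cxcl13, which places B cells in follicles, differed by -0.03. Cxcl16, the membrane-bound ligand of Cxcr6, differed by 0.16 and 0.05 on its 2 probes.

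The CX3C ligand Cx3cl1, or fractalkine, is anchored on endothelial and other cells and is released by cleavage. Its probe A_51_P196925 gave 0.25, 0.15, 0.08, 0.09 and 0.44 in unloaded animals 1 to 5, against -0.17, -0.15, -0.19, -0.18 and -0.06 in control animals 1 to 5. The lowest unloaded animal, animal 3, stood above the highest control, which was animal 5. The difference was 0.35 ± 0.09 (SE, n = 5 each), with a 95% interval of 0.15 to 0.55 and a limma adjusted p of 0.218. On slide 2 it was 0.21. The other Cx3cl1 probe differed by 0.19, with an adjusted p of 0.406. Xcl1, or lymphotactin, made by T and NK cells, had a difference of 0.31 and an adjusted p of 0.312. Of 12 markers of T and NK cells, 10 had positive differences and 3 were higher at an unadjusted p below 0.05, none with an adjusted p below 0.05, where 60.8% of all tested genes were positive and 10.1% were higher at that p. Their summed signal was 12.4 to 13.2 in unloaded femurs and 11.1 to 14.7 in control femurs, and no marker was absent. The part of these cells in the values of Xcl1 and Ccl5 was not tested.

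**Figure D3:**
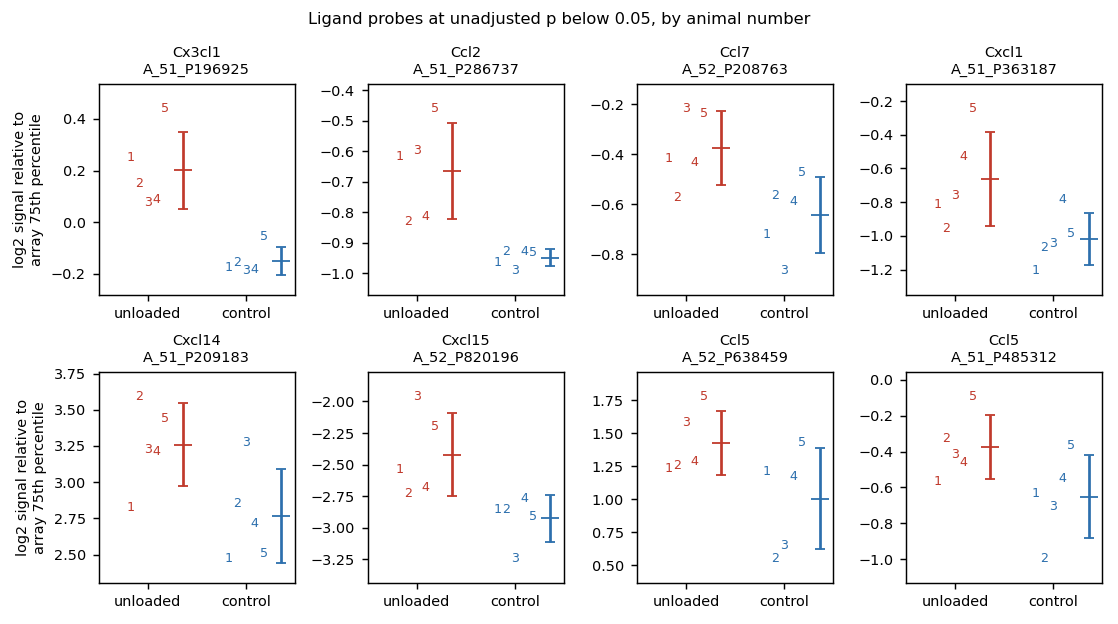
Log2 signal relative to the array's 75th percentile for 8 ligand probes at an unadjusted p below 0.05, with each animal drawn as its number, unloaded left of control, and bars for the mean ± SD of 5 animals. Unloaded and control values do not overlap for Cx3cl1, Cxcl15 and Ccl2 and overlap for Ccl7, Cxcl1, Cxcl14 and both Ccl5 probes.

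Of the 15 receptor genes, 10 had positive and 5 negative differences, and for 3 of them the direction depended on the probe. Ccr2 is the receptor by which classical monocytes leave the marrow. Its probe A_51_P245989 gave 0.95, 0.81, 0.94, 0.74 and 0.69 in unloaded animals 1 to 5, against 1.00, 1.15, 1.24, 1.21 and 1.02 in control animals 1 to 5. Every unloaded animal was below every control animal. The difference was -0.30 ± 0.09 (SE, n = 5 each), with a 95% interval of -0.50 to -0.10 and a limma adjusted p of 0.245, and it was -0.12 on slide 2, where unloaded animals 1 to 3 were set against control animal 5. Probe A_52_P580853 of the same gene gave -0.82, -0.97, -0.76, -0.88 and -0.91 in unloaded animals 1 to 5, against -0.77, -1.13, -1.13, -0.80 and -1.06 in control animals 1 to 5. Here the groups overlapped, and the difference had the opposite sign, 0.11 ± 0.10 (SE, n = 5 each), with a 95% interval of -0.11 to 0.33 and a limma adjusted p of 0.556. On slide 2 it was 0.21.

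Cx3cr1 marks non-classical monocytes and tissue macrophages. Probe A_52_P99810 gave -2.11, -1.40, -2.49, -2.49 and -3.30 in unloaded animals 1 to 5, against -1.38, -1.17, -1.31, -1.63 and -1.46 in control animals 1 to 5. Unloaded animal 5 was lowest by far and unloaded animal 2 lay within the control range, while the controls spanned a narrow range. The difference was -0.97 ± 0.26 (SE, n = 5 each), with a 95% interval of -1.52 to -0.42 and a limma adjusted p of 0.218. It was -0.54 on slide 2 and -0.73 without unloaded animal 5. Without unloaded animal 2 it was -1.21, with an adjusted p of 0.102, the smallest of any member under any alternative tried. Probe A_51_P350853 gave -2.18, -2.30, -2.13, -2.26 and -1.88 in unloaded animals 1 to 5, against -2.28, -2.27, -2.07, -2.35 and -2.38 in control animals 1 to 5. Those groups overlapped, and the difference was 0.12 ± 0.10 (SE, n = 5 each), with a 95% interval of -0.10 to 0.34 and a limma adjusted p of 0.529.

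Il8rb, now named Cxcr2, is the neutrophil receptor for Cxcl1, Cxcl2 and Cxcl5. Probe A_51_P148602 gave 1.53, 1.15, 1.70, 1.56 and 1.87 in unloaded animals 1 to 5, against 1.28, 1.26, 1.29, 1.37 and 1.28 in control animals 1 to 5. Unloaded animal 2 was below every control, and the other 4 unloaded animals were above every control. The difference was 0.27 ± 0.12 (SE, n = 5 each), with a 95% interval of 0.01 to 0.52 and a limma adjusted p of 0.304. Probe A_52_P559975 gave 1.75, 1.72, 1.51, 1.64 and 0.84 in unloaded animals 1 to 5, against 1.83, 1.76, 1.78, 1.60 and 1.95 in control animals 1 to 5. Unloaded animal 5 was far below the other animals on this probe, though it was the highest of all on the other. The difference was -0.29 ± 0.16 (SE, n = 5 each), with a 95% interval of -0.63 to 0.05 and a limma adjusted p of 0.351, and it was -0.13 without unloaded animal 5.

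Ccr2, Cx3cr1 and Il8rb were the genes whose probes differed in sign while 1 probe was at an unadjusted p below 0.05. In all, 13 member genes had more than 1 tested probe, of which 9 had probes of the same sign and 4 did not, the fourth being Ccl25. The probe sequences are not used here, so which transcript form each probe reads was not tested.

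**Figure D4:**
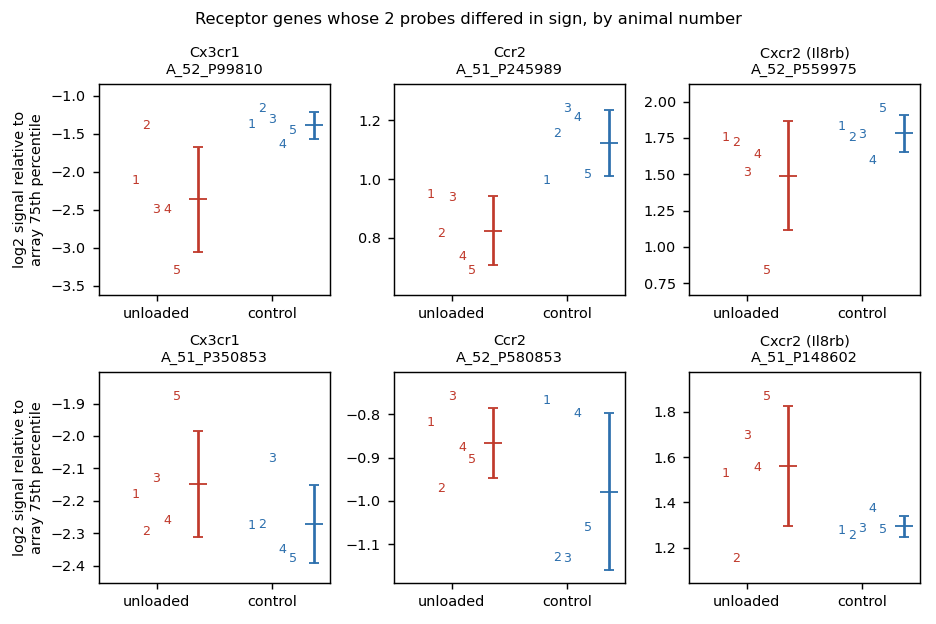
Log2 signal relative to the array's 75th percentile for both probes of Cx3cr1, Ccr2 and Il8rb (Cxcr2), with each animal drawn as its number, unloaded left of control, and bars for the mean ± SD of 5 animals. The 2 probes of Ccr2, of Cx3cr1 and of Il8rb differ in opposite directions between unloaded and control femurs.

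Cxcr3, a receptor of effector T cells and NK cells, gave -0.83, -1.16, -0.83, -0.98 and -0.91 in unloaded animals 1 to 5, against -1.23, -1.26, -1.18, -1.09 and -1.19 in control animals 1 to 5. Unloaded animal 2 was within the control range and the other 4 unloaded animals were above every control. The difference was 0.25 ± 0.09 (SE, n = 5 each), with a 95% interval of 0.05 to 0.45 and a limma adjusted p of 0.261, and it was 0.25 on slide 2. Ccr3, the eotaxin receptor of eosinophils, gave 0.72, 0.48, 0.37, 0.66 and 0.68 in unloaded animals 1 to 5, against 0.61, 0.39, 0.63, 0.81 and 0.68 in control animals 1 to 5, and its difference of -0.04, or -0.16 on slide 2, was set against an SD of 0.15 within either group. Ccr7, the receptor of Ccl19 and Ccl21c, gave -0.98, -0.98, -1.05, -1.01 and -1.003 in unloaded animals 1 to 5, against -1.06, -1.23, -1.09, -1.07 and -0.84 in control animals 1 to 5, with a difference of 0.05, an adjusted p of 0.778 and a difference of -0.17 on slide 2.

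The remaining receptors had differences between -0.07 for Ccr9, which guides thymocytes and gut lymphocytes, and 0.16 for Ccr1, a myeloid receptor. Ccr4, carried by regulatory and type 2 helper T cells, differed by 0.13 and 0.05 on its 2 probes. Ccr6, the Ccl20 receptor, differed by 0.09, Ccr8 by 0.12 and Cxcr6 by 0.00193. The probe named Ccr10 carries a description of a receptor 9 clone in the scanner files, so its difference of 0.02 has no settled gene. Adjusted p for these receptors was 0.615 or more.

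Ligands and their receptors can be set side by side, as values of separate probes. The sets given here each hold a ligand at an unadjusted limma p below 0.05 and a receptor whose 2 probes differed in sign. Ccl5, Cxcl14 and Cxcl15, also at that p, are not in these sets. Ccl2 differed by 0.28, Ccl7 by 0.27 and 0.10 on its 2 probes, and their receptor Ccr2 by -0.30 and 0.11 on its 2 probes. Ccl12, whose gene neighbours those of Ccl2 and Ccl7, differed by -0.08. Cx3cl1 differed by 0.35 and 0.19, and Cx3cr1 by -0.97 and 0.12. Cxcl1 differed by 0.36, Cxcl2 by -0.02 and Cxcl5 by 0.10, and their receptor Il8rb by 0.27 and -0.29. For these pairs the sign of the receptor difference was set by the probe read, and none of the values was called.

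Many chemokine genes lie in clusters, so members that neighbour each other within 1000000 bases were also described together. On chromosome 11, 3 of the 6 genes Ccl2, Ccl7, Ccl11, Ccl12, Ccl8 and Ccl1 had positive differences, with a median of -0.0022. The other cluster there, Ccl5, Ccl9, Ccl6, Ccl3 and Ccl4, had 4 of 5 positive and a median of 0.11. On chromosome 5, the cluster of Cxcl5, Ppbp, Pf4, Cxcl15, Cxcl1 and Cxcl2 had 5 of 6 positive and a median of 0.10, and that of Cxcl9, Cxcl10 and Cxcl11 had 1 of 3 positive and a median of -0.15. On chromosome 8, Cx3cl1 lay beside Ccl22 and Ccl17, with 2 of 3 positive. On chromosome 9, the receptor genes Ccr9, Cxcr6, Ccr1, Ccr1l1, Ccr3 and Ccr2 had 3 of 6 positive and a median of -0.02. Over all tested genes, 60.8% of differences were positive.

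Genes that act with the receptors were described from a list of 59, comprising atypical and related receptors, G protein subunits, RGS proteins, arrestins, kinases and small GTPases. Of the 58 tested, 0 were called by limma, against 0.00528% of all tested genes in either direction, with 1 higher and 8 lower at an unadjusted p below 0.05, against 10.1% of all tested genes higher and 5.74% lower. Their differences were positive for 21 and negative for 37, with a median of -0.07, against 0.06 over all genes. Quantile normalization gave 24 positive and 34 negative and a median of -0.03, with 1 higher and 8 lower at that p. Without unloaded animal 5 there were 24 and 34 and a median of -0.02, against 0.04 over all genes. With body weight as a covariate there were 26 and 32 and a median of -0.03, against 0.04 over all genes. Median scaling gave 16 and 42 and a median of -0.16, where the median over all genes was -0.04, with 0 higher and 15 lower at that p. With slide as a fixed block there were 16 and 42 and a median of -0.11, with 0 higher and 2 lower at that p, so these counts depend on the setting.

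The 4 with the smallest p are given with means and SD over 5 animals a group. Tiam1, which activates Rac, averaged -0.75 ± 0.22 in unloaded femurs and -0.36 ± 0.09 in control femurs, with a difference of -0.39 ± 0.11 (SE) and a limma adjusted p of 0.232. Fgr, a Src-family kinase of myeloid cells, averaged 0.77 ± 0.13 in unloaded and 1.09 ± 0.13 in control femurs, with an adjusted p of 0.241. Pik3cg, the catalytic subunit of the phosphoinositide 3-kinase that G protein-coupled receptors activate, averaged 0.28 ± 0.32 in unloaded and 0.74 ± 0.16 in control femurs, with an adjusted p of 0.245. Rgs1, which shortens chemokine receptor signalling, averaged -1.68 ± 0.13 in unloaded and -1.96 ± 0.09 in control femurs, with an adjusted p of 0.252. Over the 58 tested genes of the list, the groups did not overlap for 4, against 631 of all 18955 tested genes. These were Tiam1, Fgr and Was, lower in unloaded femurs, and Rgs1, higher there.

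Markers of the cells that carry these receptors are given beside them. Of 13 markers of monocytes and macrophages, 4 had positive and 9 negative differences, with 1 higher and 4 lower at an unadjusted p below 0.05 and 0 called by limma, where 10.1% of all tested genes were higher and 5.74% lower at that p. The summed signal of the 12 measured on all arrays, in units of the 75th percentile, was 184 to 199 in unloaded femurs and 194 to 201 in control femurs. Lyz1 is not in that sum, and it differed by -0.36, with a limma adjusted p of 0.252. That sum follows mostly Lyz2, the marker of highest signal, with means of 7.19 in unloaded and 7.16 in control femurs. Lyz2 differed by 0.03, so the sum says little of the other markers. For neutrophils and their precursors, 7 of 13 tested markers had positive differences and 1 was lower at an unadjusted p below 0.05, and the sum of 12 was 752 to 803 in unloaded femurs and 708 to 826 in control femurs. Markers of B cells had 3 positive and 5 negative differences, those of dendritic cells 5 and 2, and those of eosinophils, basophils and mast cells 4 and 4. At an unadjusted limma p below 0.05, 2 of the 7 dendritic cell markers were higher, against 10.1% of all tested genes, and 0 in the other lists of this group. None of the tested markers in these lists was absent. Their part in the values of Ccr2, Cx3cr1 and Il8rb was not tested. All 7 markers of osteoblasts and osteocytes had positive differences, where 60.8% of all tested genes were positive. Of these markers 0 were called and 1, Mepe, was higher at an unadjusted p below 0.05, against 10.1% of all tested genes. Mepe had a difference of 0.55 and a limma adjusted p of 0.241. The summed signal of the 6 measured on all arrays was 154 to 169 in unloaded femurs and 140 to 149 in control femurs, without overlap. Bglap, the marker of highest signal, is not in that sum. Its means were 7.21 in unloaded and 7.17 in control femurs, with SDs of 0.23 and 0.24, and a sum that holds it was not computed. No share over all genes was computed for such a sum. A sum follows most the markers of highest signal, here Col1a1 among the 6, with means of 6.91 in unloaded and 6.83 in control femurs. Col1a1 itself differed by 0.08. The part of these cells in the ligand values was not tested. Skeletal muscle markers were also measured, with summed signals of 140 to 284 in unloaded and 116 to 281 in control femurs. Of 7 endothelial markers, 2 had positive and 5 negative differences, and 0 were at an unadjusted limma p below 0.05.

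**Figure D5:**
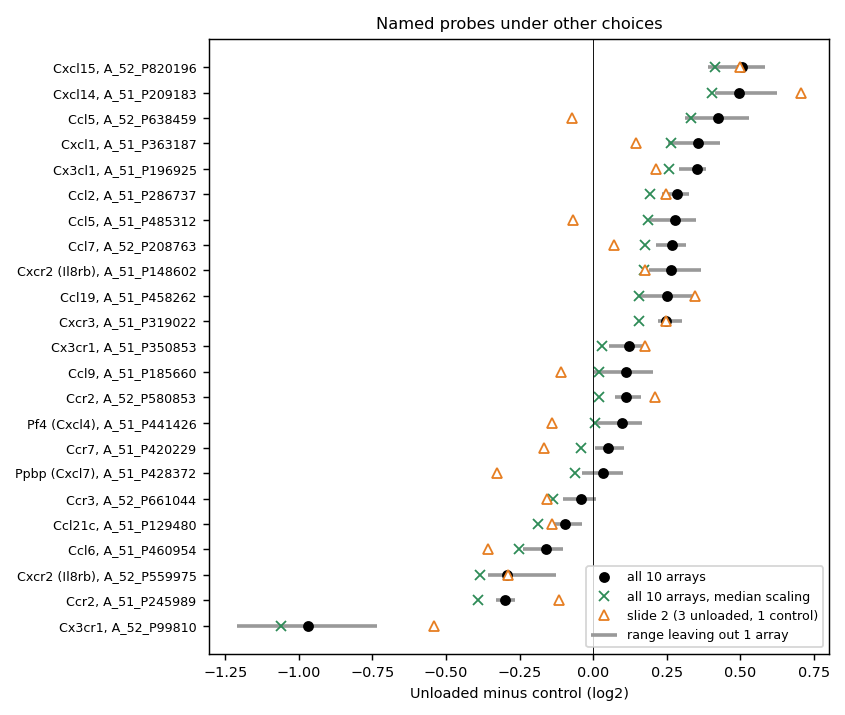
Log2 difference, unloaded minus control, of each named probe with all 10 arrays (dots), after median scaling (crosses), on slide 2 alone with 3 unloaded and 1 control animal (triangles), and as the range with 1 array left out (bars). Ccl5, Ccl9, Ccr3, Ccr7, Pf4 (Cxcl4) and Ppbp (Cxcl7) cross 0 in at least 1 of these.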

How the data were processed

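The deposited scanner files hold linear spot intensity. Per the file headers, the arrays were of design 014868, and version 9.1.3.1 of Agilent Feature Extraction (protocol GE1-v5_91_0806) produced the authors' processed signal, corrected for background and detrended within an array. The deposited series matrix holds the same intensity, with ratios to the processed signal of 0.995 to 1.005 and medians over gene probes of 324, 277, 261, 321 and 300 in unloaded animals 1 to 5 and 346, 343, 313, 269 and 315 in controls 1 to 5. It is on a linear scale and uncentred, and it was an alternative. Here the log2 of the processed signal minus that of the array's 75th percentile over gene spots was computed, control spots and 97 spots marked as outliers were left out, and spots of a probe were averaged. Testing required a signal well above background on 4 or more of the 5 arrays of either group, and values on 3 or more arrays of both. The minimum of 3 was set after values were known.

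The groups were compared in R 4.3.3 with limma 3.58.1 (lmFit, then eBayes), a two-sided test with no covariate fitted over all 38629 tested probes, with Benjamini-Hochberg adjustment over them, and was tested on simulated data. The highest-mean probe stood for a gene. Of the 63 member probes, 56 were named by accession in a RefSeq list of GRCm38.p6 and 7 already had a current name.

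The members and lists were chosen with earlier results of these data known. Values per animal are given for members at an unadjusted p below 0.05, for 8 ligand and 6 receptor genes picked by the mean signal of their probes, which served to choose genes and orders no levels, for genes whose probes differ in sign with 1 at that p, and for members whose groups do not overlap. A member that is counted among the 63 probes is not reported here by name. A planned grouping of CXC ligands by a protein motif was not made, since no protein sequences were used here. Same-numbered animals of the 2 groups did not deviate together (correlations of -0.14 to 0.18 over 5 pairs), so the fit has no block. Alternatives covered background correction, scaling, filters, variance model, body weight, slide and each array left out. The number of arrays limits the precision.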

Additional observations from a re-analysis of the deposited data

Results flagged for a closer look

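In 46 groups of animals over the 23 named probes, chance alone would be expected to mark about 1 in 20 groups by Dixon's criterion for a single value far from the others, and 3 were marked. For Il8rb probe A_52_P559975, unloaded animal 5 was lowest at 0.84, against a median of 1.68 for the other unloaded animals. For Il8rb probe A_51_P148602, control animal 4 was highest at 1.37, against a median of 1.28 for the other controls. For Cx3cl1 probe A_51_P196925, control animal 5 was highest at -0.055, against a median of -0.18 for the other controls.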

How the results depend on the processing

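No chemokine, receptor or other pathway probe was called under any of the alternatives that gave a test, and the smallest member adjusted p was 0.102. For 12 member probes the unadjusted limma p was below 0.05 (10 higher, 2 lower), for 8 after median scaling (4 and 4), or 12.9%, against 15.04% of all tested probes there, and for 3 with slide as a fixed block (3 and 0), or 4.84%, against 4.74% of all tested probes there. Without unloaded animal 2 the member share was 21.0%, against 25.0% of all tested probes. With the other background correction the shares were 14.5% and 8.25%, and with body weight 14.5% and 8.99%. With an intensity trend and robust variance they were 24.2% and 17.1%. The median difference over member genes, 0.06, was -0.0302 after median scaling, where that over all genes was -0.0363. It was -0.0759 with slide as a fixed block or within slide 2, and 0.03 to 0.09 with each array left out. The count of all probes called, 1 higher and 0 lower, was 2 and 1 with an intensity trend and robust variance, 2 and 1 with slide as a fixed block, 0 and 0 with body weight, and 0 to 2 higher with each array left out (2 without control 2, 0 without control 4, control 5, unloaded 1 or unloaded 4). The replicate block gave 1 higher and 0 lower and 0 members, with 13 members at an unadjusted p below 0.05 (21.0%, against 16.7% of all tested probes), and changed no call. No animal correlated best with its own number in the other group (0 of 5). With slide as a fixed block or within slide 2, signs turned for Ccl5 (-0.0683 and -0.0726), Ccl9 (-0.11), Ccr7 (-0.17), Pf4 (-0.14) and Ppbp (-0.33). After median scaling they turned for Ccr7 (-0.0427) and Ppbp (-0.0605), and after quantile normalization for Ccr3 (0.000646), Ccr7 (-0.0307) and Ppbp (-0.0023). With each array left out, Ccr3 ranged from -0.10 to 0.00956 and Ppbp from -0.0394 to 0.10. The other 16 of the 23 probes given by animal had no such turn. The cause was not tested. Slide 2 held 1 control, so its value had no test. The differences and counts with slide as a fixed block rest on the same control.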
